A study of Homo sapiens with 9 samples.

Results

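The transcripts of 6 plasma carrier proteins were followed in Huh7, a cell line grown from a human liver cancer: the albumin family members ALB, AFP, AFM and GC, and the partner carriers TTR and RBP4. They were chosen by gene symbol from the 27800 symbols of the deposited table, and all 6 were found. All 6 were also among the 13573 genes tested, those with at least 1 TPM (a transcript's share of the library, corrected for its length) in at least 3 of the 9 libraries. In all, 3 groups of 3 libraries of total RNA were compared: cells given vehicle, which the labels do not name further, cells given 5 uM FIDAS-5 for 48 h, and cells given 0.5 uM JQ1 for 48 h, all grown in DMEM with 10% FBS. FIDAS-5 inhibits MAT2A, the enzyme that makes the methyl donor S-adenosylmethionine in most dividing cells. JQ1 displaces BET bromodomain proteins from acetylated histones. Each compound was given at 1 dose, the compounds are not analogs, and nothing in the labels ties the libraries of a group to different cultures. The spread behind each p-value is therefore that of the libraries and may be technical.

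Hepatocytes secrete most of the carrier proteins of blood. Albumin (ALB) is the main plasma protein and binds fatty acids, bilirubin and many drugs. Alpha-fetoprotein (AFP) is its fetal counterpart, which falls silent in the adult liver and returns in many liver cancers. Afamin (AFM) binds vitamin E and Wnt lipoproteins, and GC is the vitamin D-binding protein. Transthyretin (TTR) carries thyroxine and holds retinol-binding protein (RBP4), which brings vitamin A from the liver to other tissues, in a complex too large to be lost through the kidney.

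The cells carried the RNA of hepatocyte-derived cells. All 12 hepatocyte markers other than the carriers themselves passed the filter, with a summed level of 3210 to 3318 TPM in vehicle, 4568 to 4833 TPM with FIDAS-5 and 8727 to 9965 TPM with JQ1. The sum rests largely on a few abundant genes, such as APOA2 at 1428 to 1618 TPM with FIDAS-5 and SERPINA1 at 2996 to 3185 TPM with JQ1. By the test described below, 5 of the 12 rose with FIDAS-5, and 8 rose and 3 fell with JQ1. Those that fell were APOH, ASGR1 and CPS1. CPS1 was at 0.230 to 2.73 TPM over the 9 libraries and passed the filter only through vehicle and FIDAS-5 libraries. Of all genes tested 12.6% rose and 7.6% fell with FIDAS-5, and 19.0% rose and 19.4% fell with JQ1. The endothelial marker CDH5 and the cholangiocyte marker KRT7 were listed at 0 in all 9 libraries. Other markers of these cell types were present: endothelial PECAM1 and the cholangiocyte markers SOX9 and EPCAM were above 1 TPM in every library. The zeros therefore describe CDH5 and KRT7 only. TPM keeps no read counts, so depth is unknown. Within both treated groups the libraries differed along transcript G+C content. Across genes, which are not independent, the departure from the group mean correlated with G+C content at 0.555 in FIDAS-5 replicate 3 and 0.641 in JQ1 replicate 3 (Spearman), and at -0.506 and -0.655 in replicate 1 of the same groups. For the 6 members, values without both replicate 3 libraries are given where a call depends on them. Both treated groups were compared with the same vehicle libraries. In bulk RNA, fewer cells of a type and less RNA per cell cannot be told apart.

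In vehicle-treated cells RBP4, AFP and ALB were among the most abundant protein-coding transcripts, in places 11, 13 and 21 of all protein-coding genes by mean TPM. RBP4 was at 1724 ± 182 TPM (SD, n = 3), AFP at 1643 ± 259 TPM and ALB at 1243 ± 323 TPM, and neighbours in this order overlapped between libraries. TTR followed at 298 ± 10.2 TPM, GC at 160 ± 40.1 TPM and AFM at 0.229 ± 0.0308 TPM, with no overlap from ALB downward. With FIDAS-5 the order was RBP4, ALB, AFP, TTR, GC and AFM, where ALB overlapped AFP and AFP overlapped TTR. With JQ1 the order was ALB, RBP4, AFP, GC, TTR and AFM, where of neighbours in the order only ALB and RBP4 overlapped, and ALB in replicate 3 also lay below AFP in replicate 1. The 6 transcripts together made up 1.63% ± 0.0960 of protein-coding TPM in vehicle-treated cells, 1.79% ± 0.244 with FIDAS-5 and 2.43% ± 0.471 with JQ1.

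**Figure D1:**
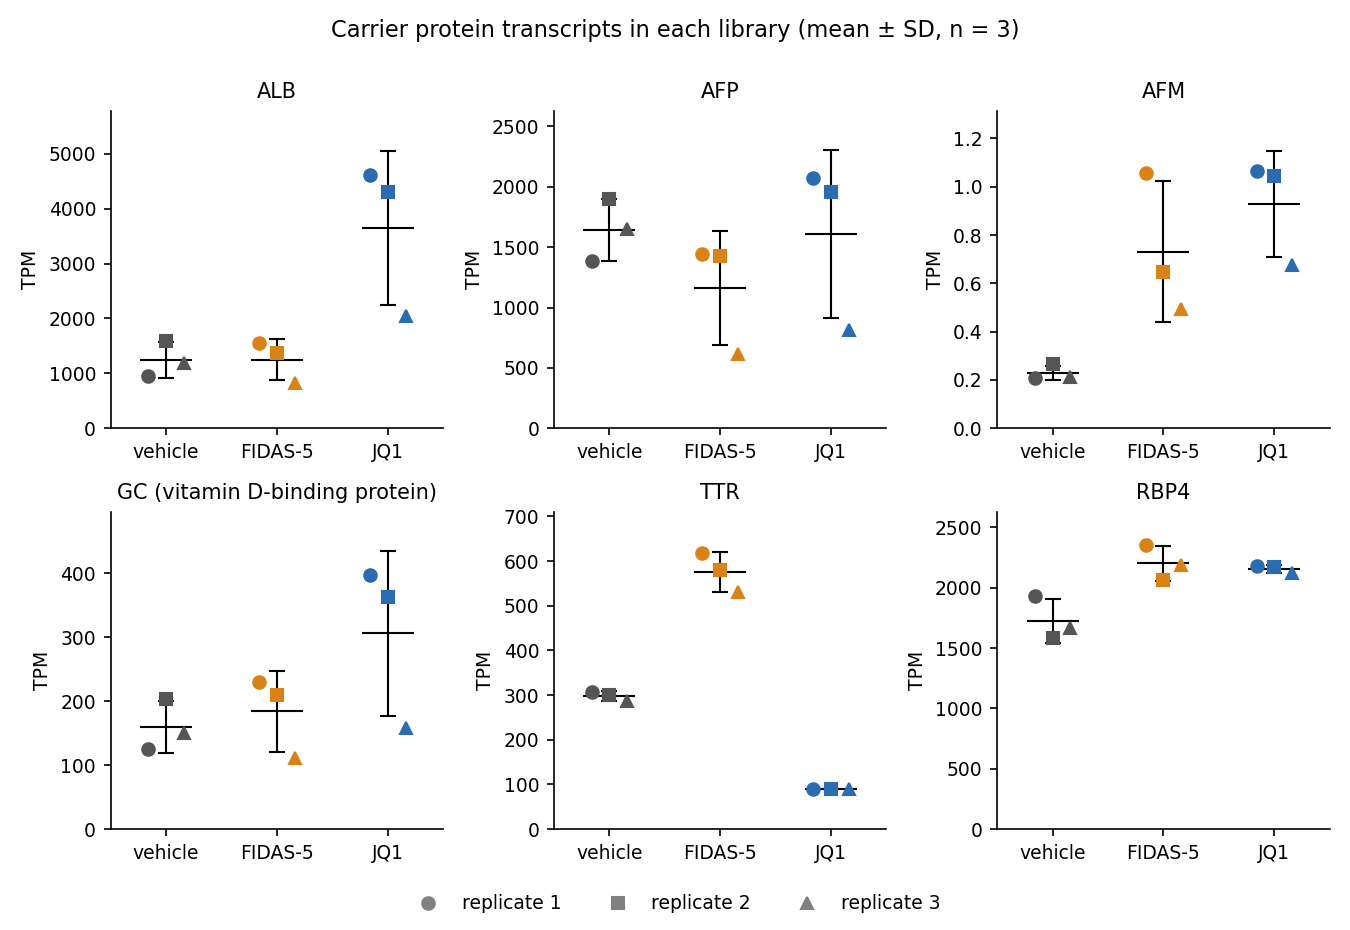
TPM of each carrier transcript in the 9 libraries (vertical axes in TPM, each with its own range from 0), with the replicate number as the symbol and the mean ± SD of 3 libraries as bars. TTR lies between 287 and 307 TPM in vehicle, between 530 and 617 TPM with FIDAS-5 and at 88.9 to 89.6 TPM with JQ1, while ALB, AFP and GC are lowest in replicate 3 of both treated groups.

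The comparison of each compound with vehicle asks which carrier transcripts changed with FIDAS-5 and with JQ1. TTR moved in opposite directions with the compounds, up with FIDAS-5 and down with JQ1. ALB rose with JQ1. By limma on log2(TPM + 1), with p-values adjusted over all genes tested, 1 of the 6 members was called higher with FIDAS-5, where 20.2% of all genes were called (12.6% higher and 7.6% lower). With JQ1, 2 members were called higher and 1 lower, where 38.5% of all genes were called (19.0% higher and 19.4% lower). AFM was 1 of the members called higher and is no support for a rise, since it passed the filter only through treated libraries. Between JQ1 and FIDAS-5, 1 member was called higher and 1 lower with JQ1, where 34.8% of all genes were called (16.4% higher and 18.5% lower). The balance of calls over all genes moved with the processing: 62.4% of calls with FIDAS-5 were higher, against 52.0% with quantile normalization, and the share with JQ1 went from 49.5% to 58.6% without JQ1 replicate 3. Between JQ1 and FIDAS-5 it went from 47.0% to 59.7% without that library and to 39.3% without JQ1 replicate 1. The median log2 fold change of the 6 members was 0.26 with FIDAS-5 and 0.49 with JQ1, against -0.02 and -0.01 over all genes tested. Both medians include AFM and are raised by it. With AFM left out, the middle value was that of GC with FIDAS-5 (0.16) and that of RBP4 with JQ1 (0.33), neither of them called.

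Albumin was at 953, 1591 and 1184 TPM in the 3 vehicle libraries, at 1552, 1368 and 826 TPM with FIDAS-5 and at 4605, 4301 and 2040 TPM with JQ1. All JQ1 libraries lay above all other libraries, and the FIDAS-5 libraries overlapped those of vehicle. ALB rose with JQ1 by 1.50 on the log2 scale (SE 0.36, limma adjusted p = 0.0106), with means of 1243 ± 323 TPM in vehicle and 3648 ± 1401 TPM with JQ1, and moved from place 21 to place 3 of the protein-coding genes. The call held under all 20 alternatives run, with log2 fold changes of 1.28 to 1.87 and adjusted p-values of 1.58e-04 to 0.0489. With FIDAS-5 the log2 fold change was -0.01 (95% interval -0.83 to 0.80, adjusted p = 0.986), an interval that leaves room for a change in either direction. ALB was higher with JQ1 than with FIDAS-5 by 1.51 on the log2 scale (adjusted p = 0.0112).

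AFP was at 1382, 1899 and 1647 TPM in vehicle, at 1442, 1428 and 612 TPM with FIDAS-5 and at 2069, 1954 and 810 TPM with JQ1. The groups overlapped in all comparisons, and replicate 3 was the lowest library in both treated groups. The log2 fold change was -0.59 with FIDAS-5 (95% interval -1.55 to 0.37, limma adjusted p = 0.366) and -0.13 with JQ1 (95% interval -1.10 to 0.83, adjusted p = 0.829). Against vehicle AFP was called with neither compound under any of the 20 alternatives, and its log2 fold change with JQ1 ranged from -0.37 to 0.30 over them. Between JQ1 and FIDAS-5 the difference was 0.46 (adjusted p = 0.443). AFP was higher with JQ1 in 3 of 3 pairs of same-numbered libraries, which the labels do not tie together. With the replicate number as a block in a fit to those 6 libraries alone it was called (adjusted p = 0.0178), and in the 20 other alternatives it was not.

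GC, the vitamin D-binding protein, was at 125, 204 and 150 TPM in vehicle, at 231, 210 and 111 TPM with FIDAS-5 and at 397, 363 and 159 TPM with JQ1. Replicates 1 and 2 of JQ1 lay above every other library, while replicate 3 fell within the vehicle range. The log2 fold change with JQ1 was 0.86 (95% interval -0.04 to 1.75, limma adjusted p = 0.119), and it was 1.27 without JQ1 replicate 3 (adjusted p = 0.0146) and without replicate 3 of both compounds (adjusted p = 0.00300). It was also called with median-of-ratios scaling (adjusted p = 0.0399), with protein-coding genes rescaled (adjusted p = 0.0429), with quantile normalization (adjusted p = 0.0279) and with the trend on G+C content removed (adjusted p = 0.00768). A replicate block over all libraries called it too (adjusted p = 0.0436). In 13 of the 20 alternatives it was not called, with adjusted p-values up to 0.295. With FIDAS-5 the log2 fold change was 0.16 (95% interval -0.73 to 1.06, adjusted p = 0.809). Between JQ1 and FIDAS-5 the difference was 0.69 (adjusted p = 0.211). GC was higher with JQ1 in 3 of 3 pairs of same-numbered libraries, which the labels do not tie together. It was called with the replicate number as a block in a fit to those 6 libraries alone (adjusted p = 0.00423), without JQ1 replicate 3 (1.11, adjusted p = 0.0251) and without replicate 3 of both compounds (0.78, adjusted p = 0.0347). In 18 of 21 alternatives it was not.

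AFM was close to silent. It was at 0.208, 0.264 and 0.214 TPM in vehicle, at 1.06, 0.647 and 0.492 TPM with FIDAS-5 and at 1.06, 1.05 and 0.676 TPM with JQ1. All treated libraries lay above all vehicle libraries. AFM passed the filter on low values only through 1 FIDAS-5 and 2 JQ1 libraries, so it had to be higher there and its call supports nothing further. The log2 fold change was 0.64 with JQ1 (limma adjusted p = 0.00955) and 0.48 with FIDAS-5 (adjusted p = 0.0544, or 0.0325 without replicate 3 of both compounds), both reduced by the pseudocount of 1. With a pseudocount of 0.1 they were 1.63 and 1.29.

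TTR was at 307, 300 and 287 TPM in vehicle, at 617, 579 and 530 TPM with FIDAS-5 and at 88.9, 89.6 and 89.3 TPM with JQ1. The groups did not overlap in any comparison, and the JQ1 libraries differed by less than 1 TPM. TTR rose with FIDAS-5 by 0.95 on the log2 scale (SE 0.11, limma adjusted p = 6.33e-04) and fell by 1.73 with JQ1 (SE 0.11, adjusted p = 1.64e-05). Between the treated groups the difference, JQ1 minus FIDAS-5, was -2.67 (adjusted p = 9.87e-07). All of these calls held under every alternative run, with ranges of 0.89 to 1.14 with FIDAS-5 and -1.76 to -1.53 with JQ1.

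RBP4 was at 1928, 1579 and 1665 TPM in vehicle, at 2351, 2064 and 2192 TPM with FIDAS-5 and at 2179, 2170 and 2119 TPM with JQ1. All treated libraries lay above all vehicle libraries, and the treated groups overlapped each other. The log2 fold change was 0.36 with FIDAS-5 (95% interval 0.08 to 0.63, limma adjusted p = 0.0714) and 0.33 with JQ1 (95% interval 0.05 to 0.60, adjusted p = 0.0608), so neither passed the threshold over all genes. Each was called under 4 of 20 alternatives, namely no filter, a trend in the moderation, the trend on G+C content removed and leaving out vehicle replicate 1 (adjusted p = 0.0348 to 0.0455 with FIDAS-5 and 0.0308 to 0.0377 with JQ1). Between the treated groups the difference was -0.03 (95% interval -0.30 to 0.25, adjusted p = 0.882). Counting each member, 3 of 6 had FIDAS-5 libraries apart from all vehicle libraries and 4 of 6 had JQ1 libraries apart from them, AFM being 1 of each, where this held for 39.3% and 50.7% of all genes tested. Between the treated groups 2 of 6 were apart, against 47.6% of all genes.

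**Figure D2:**
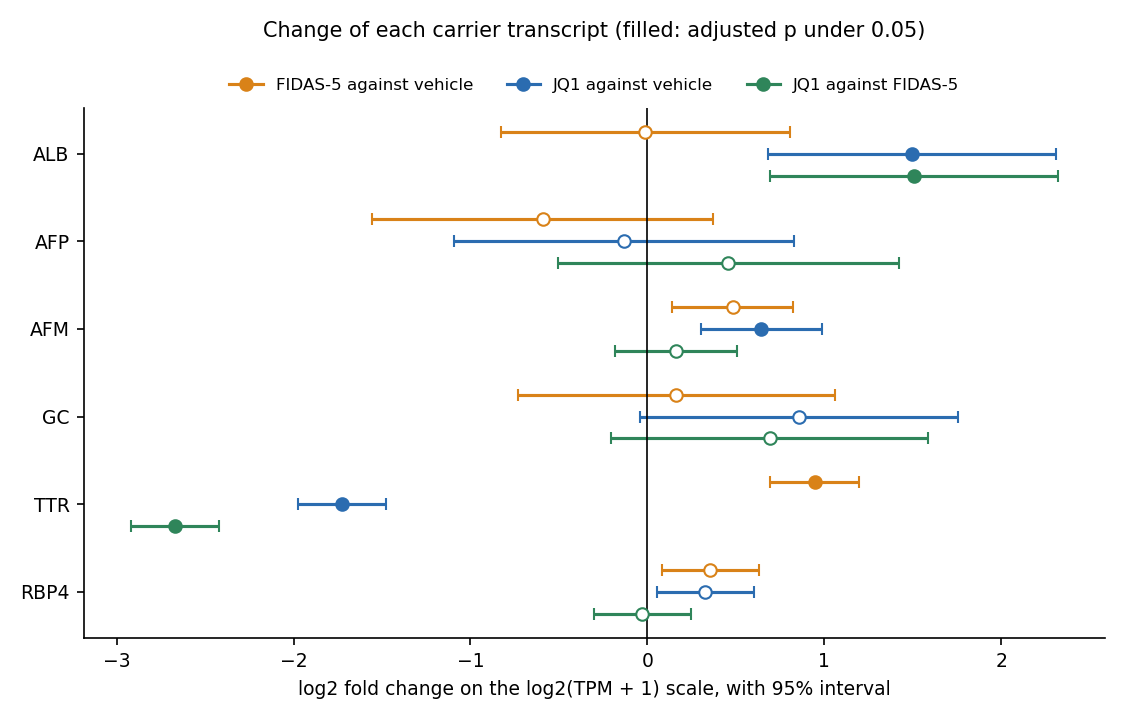
Log2 fold change (horizontal axis, log2(TPM + 1) scale) of each carrier transcript in the 3 comparisons, with 95% intervals from limma and filled points at an adjusted p under 0.05. TTR lies at 0.95 with FIDAS-5 and at -1.73 with JQ1, ALB at 1.50 with JQ1, and the intervals of AFP include 0 in all comparisons.

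Within each group ALB, AFP and GC departed from the group mean together. In FIDAS-5 replicate 3 their departures were -0.55, -0.82 and -0.65 on the log2(TPM + 1) scale, and in JQ1 replicate 3 they were -0.75, -0.87 and -0.83. In vehicle replicate 1 they were -0.35, -0.24 and -0.32. Over the 9 libraries the departures of ALB and GC had a Pearson correlation of 0.997, those of ALB and AFP of 0.965, and those of ALB and RBP4 of -0.17, given as a description because libraries share their composition. In the same JQ1 replicate 3 RBP4 departed by -0.02, and TTR lay at the group mean. AFM departed by -0.20, a value reduced by the pseudocount of 1 at its 0.676 to 1.06 TPM with JQ1. Median transcript G+C content was 41.1% for ALB, 41.2% for AFP, 37.0% for AFM, 44.0% for GC, 46.8% for TTR and 53.7% for RBP4. With the trend on G+C content removed, the log2 fold change with JQ1 was 1.66 for ALB (limma adjusted p = 1.58e-04), 0.03 for AFP (adjusted p = 0.927) and -1.63 for TTR (adjusted p = 3.11e-05).

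**Figure D3:**
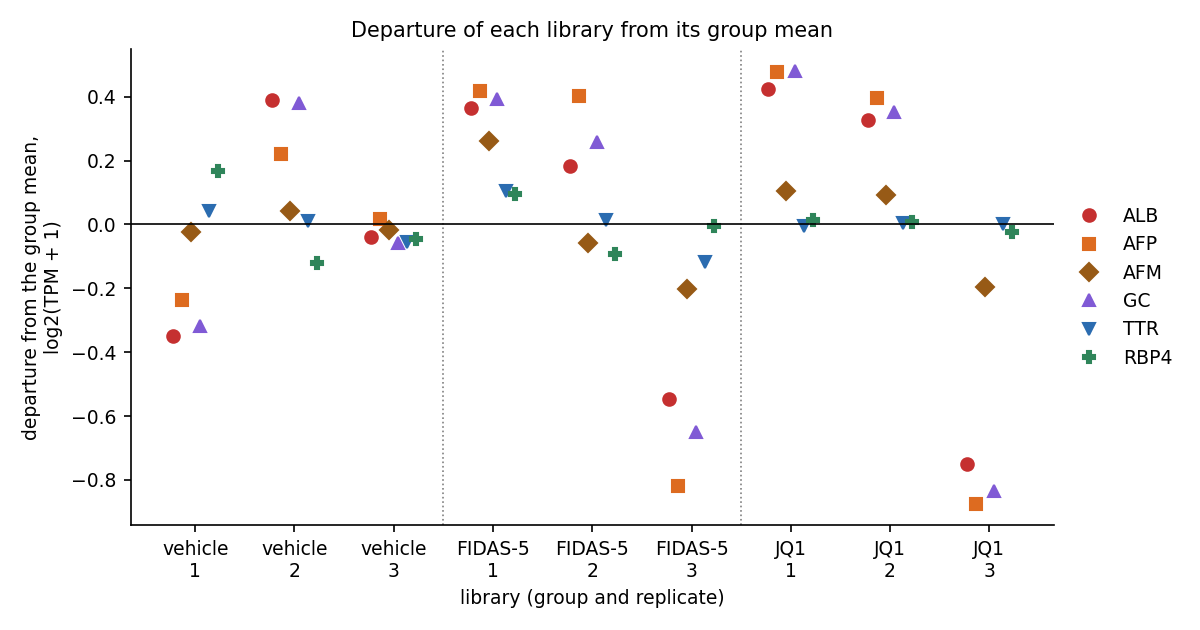
Departure of each library from its group mean on the log2(TPM + 1) scale (vertical axis) for the 6 carrier transcripts, with libraries by group and replicate along the horizontal axis. ALB, AFP and GC sit together at -0.55 to -0.87 in replicate 3 of both treated groups, where TTR departs by -0.12 with FIDAS-5 and RBP4 by -0.02 with JQ1.

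A ratio of 2 transcripts within a library does not depend on how the library was scaled. AFP stood above ALB in all vehicle libraries, at a ratio of 1.45, 1.19 and 1.39. The ratio was 0.929, 1.04 and 0.741 with FIDAS-5 and 0.449, 0.454 and 0.397 with JQ1, so the 3 groups did not overlap. On the log2 scale it was lower by 0.58 with FIDAS-5 (difference -0.58, SE 0.17) and by 1.63 with JQ1 (difference -1.63, SE 0.11), each with p = 0.1 by a two-sided exact permutation test, the smallest value that 3 against 3 libraries allow. Leaving out each library in turn gave -0.69 to -0.44 with FIDAS-5 and -1.71 to -1.57 with JQ1. The ratio of a tested gene to ALB had groups apart for 22.6% of genes with FIDAS-5, for 70.7% with JQ1 and for 77.6% between the treated groups.

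GC followed ALB closely within a group. Its ratio to ALB was 0.131, 0.128 and 0.127 in vehicle, 0.149, 0.153 and 0.135 with FIDAS-5 and 0.0862, 0.0844 and 0.0779 with JQ1. The groups did not overlap, and ALB therefore stood higher against GC with JQ1 than in vehicle, with a log2 difference of -0.64 (SE 0.05, exact permutation p = 0.1). RBP4 to TTR, the ratio of the retinol carrier to its partner, was 6.29, 5.26 and 5.81 in vehicle, 3.81, 3.56 and 4.14 with FIDAS-5 and 24.5, 24.2 and 23.7 with JQ1. The difference on the log2 scale was -0.59 (SE 0.10) with FIDAS-5 and 2.07 (SE 0.08) with JQ1, each with exact permutation p = 0.1, where the ratio to TTR set groups apart for 76.4% and 87.6% of genes. Between the treated groups it differed by 2.66 (SE 0.06), where 94.9% of genes were apart. Of 18 tests over 6 ratios and 3 comparisons, the lowest adjusted p was 0.1125, so none could pass 0.05 at this number of libraries. The ratio of RBP4 to ALB overlapped between vehicle and both treated groups (exact permutation p = 0.4 with FIDAS-5 and 0.2 with JQ1).

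**Figure D4:**
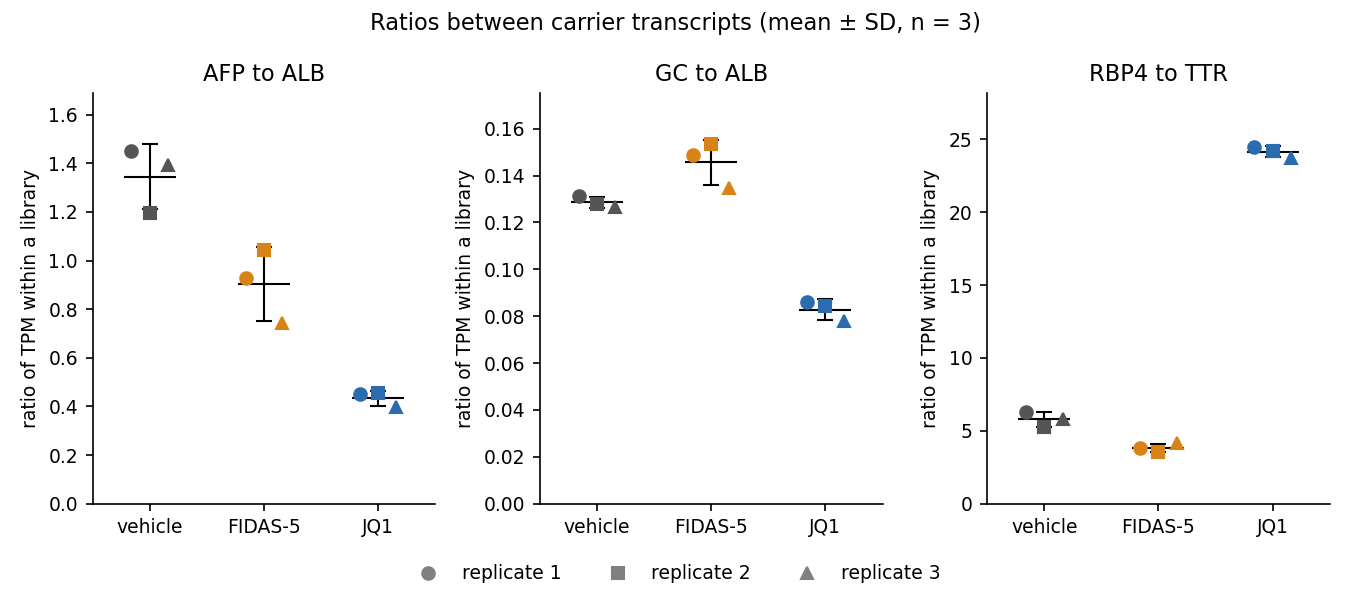
Ratio of TPM within a library (vertical axes from 0) of AFP to ALB, GC to ALB and RBP4 to TTR, with the replicate as the symbol and the mean ± SD of 3 libraries as bars. The AFP to ALB ratio averages 1.35 ± 0.135 in the vehicle libraries, 0.905 ± 0.153 in those of FIDAS-5 and 0.434 ± 0.0319 with JQ1, and the RBP4 to TTR ratio stands at 24.1 ± 0.391 with JQ1.

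The family genes lie together on chromosome 4 (GRCh38): ALB from 73404287 to 73421482, AFP from 73436221 to 73456174 and AFM from 73481745 to 73504001, with gaps of 14.7 kb and 25.6 kb. GC lies apart from them at 71741693 to 71805520. TTR is on chromosome 18 (31591877 to 31598821) and RBP4 on chromosome 10 (93591694 to 93601744). The neighbours differed widely in level: AFM, next to AFP, was at 0.229 TPM where AFP was at 1643 TPM in vehicle. ANKRD17, the nearest protein-coding gene before ALB, had a log2 fold change of 0.13 with JQ1 (limma adjusted p = 0.721). Beyond AFM, RASSF6 was not tested and the chemokine CXCL8 rose with FIDAS-5 by 2.26 on the log2 scale and fell by 1.16 with JQ1. The protein-coding gene nearest to TTR, B4GALT6, was at 0.952 TPM in vehicle and had a log2 fold change of 0.59 with JQ1 (adjusted p = 0.0844). On its other side, the desmosomal cadherins DSG2 and DSG3 had log2 fold changes of -1.06 (adjusted p = 0.0192) and -0.77 (adjusted p = 0.00750) with JQ1. The call of DSG2 was lost without vehicle replicate 2 or 3 and with no filter (lowest adjusted p of these 0.0581). DSG3 averaged 0.939 TPM in vehicle, 1.06 TPM with FIDAS-5 and 0.139 TPM with JQ1. DSG3 passed the filter only through vehicle and FIDAS-5 libraries, so its call with JQ1 supports nothing further. Beside RBP4, CEP55, a protein of cell division, averaged 12.5 TPM in vehicle and had log2 fold changes of -0.95 with FIDAS-5 (adjusted p = 0.0454) and -1.23 with JQ1 (adjusted p = 0.00888). The call with JQ1 held under all 20 alternatives, and that with FIDAS-5 was lost under 9, among them leaving out any vehicle library, FIDAS-5 replicate 2 or 3, or JQ1 replicate 2 (lowest adjusted p of these 0.0542). FFAR4, at 0.688 TPM in vehicle, rose with FIDAS-5 by 0.42, a call lost under 7 of 19 alternatives, among them leaving out vehicle replicate 2 or 3, FIDAS-5 replicate 1 or 3, or JQ1 replicate 2 (lowest adjusted p of these 0.0530). Its mean was over the 1 TPM of the filter only with FIDAS-5 (1.26 TPM), so the filter may favour this call.

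Upstream sequences from RefSeq (GRCh38.p14) were at hand for 4 of the 6 members. The 150 bases before the RefSeq start site are shown for the 3 neighbouring albumin family genes, which share a position and differ in level, and for RBP4 as a contrast in base composition. Each is written 5′ to 3′ on the gene's strand, and capitals mark TATAAA, the TATA box, and CCAAT, the CCAAT box, on either strand.
ALB, chr4:73404137-73404286, plus strand: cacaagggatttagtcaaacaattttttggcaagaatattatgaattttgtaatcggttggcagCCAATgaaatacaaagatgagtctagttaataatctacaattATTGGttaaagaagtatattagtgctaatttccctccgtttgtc
AFP, chr4:73436071-73436220, plus strand: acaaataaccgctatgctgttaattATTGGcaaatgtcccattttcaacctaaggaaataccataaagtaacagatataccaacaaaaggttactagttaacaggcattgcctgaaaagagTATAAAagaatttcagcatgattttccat
AFM, chr4:73481595-73481744, plus strand: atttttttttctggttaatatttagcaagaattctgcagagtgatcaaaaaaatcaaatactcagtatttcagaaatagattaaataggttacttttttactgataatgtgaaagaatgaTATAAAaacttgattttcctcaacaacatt
RBP4, chr10:93601236-93601385, minus strand: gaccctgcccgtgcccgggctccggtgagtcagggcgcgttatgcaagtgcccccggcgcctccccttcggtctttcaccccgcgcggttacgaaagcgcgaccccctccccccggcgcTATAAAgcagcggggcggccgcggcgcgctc
TATAAA was found 29, 30 and 31 bases before the starts of AFP, AFM and RBP4, and it or its reverse complement occurs in 6.72% of 34943 windows of the same length. CCAAT or its reverse complement was found 86 and 44 bases before the start of ALB and 125 bases before that of AFP, and it occurs in 23.5% of windows. No such match was found in the windows shown for AFM and RBP4, and no TATAAA in that of ALB. The G+C content of the windows was 31.3% for ALB, 32.7% for AFP, 24.0% for AFM and 74.0% for RBP4. AFM, which was close to silent, and the abundant AFP and RBP4 all carried TATAAA at a like distance. RefSeq gives RBP4 3 start sites, and the one shown is 9 bases from a principal GENCODE start. The starts used for ALB, AFP and AFM are 48, 58 and 62 bases from theirs. The motif distances above hold for the RefSeq starts only. The other RBP4 windows hold no TATAAA, and CCAAT stands in a window of these 149 bases before its start. A match is a description and not a bound site.

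Transcription factors known to act on these genes in liver were described as a list of 24, all tested. With JQ1 14 of them rose and 5 fell, where 19.0% of all genes rose and 19.4% fell. Their median log2 fold change was 0.79 against -0.01 over all genes. HNF4A, a nuclear receptor central to hepatocyte identity, rose by 0.91 (limma adjusted p = 0.00123) from 73.2 ± 7.52 TPM in vehicle to 138 ± 0.213 TPM. CEBPA rose by 0.94, FOXA3 by 0.98 and HHEX by 1.58. ZHX2, known as a repressor of AFP in adult liver, had 16.5 ± 3.50 TPM in vehicle and 6.24 ± 0.642 TPM with JQ1, a log2 fold change of -1.26 (adjusted p = 4.36e-04). ZBTB20, the other known AFP repressor, had 1.21 ± 0.261 TPM in vehicle against 1.04 ± 0.208 TPM with JQ1 (adjusted p = 0.609). NFIC had a log2 fold change of -2.13, and the bile acid receptor NR1H4 of -1.63. With FIDAS-5 2 of the 24 rose and 1 fell, with a median of 0.01, where 12.6% of all genes rose and 7.6% fell. CEBPD, a factor of the acute phase, rose by 1.19 (adjusted p = 4.88e-04). GATA4 rose by 1.10, a call lost with no filter and without vehicle replicate 3, FIDAS-5 replicate 1 or FIDAS-5 replicate 3 (lowest adjusted p of these 0.0545). NR1H4 had a log2 fold change of -0.82, a call lost with no filter and without replicate 2 or 3 of either vehicle or FIDAS-5 (lowest 0.0598). Without replicate 3 of both compounds 1 factor was higher and 0 were lower with FIDAS-5, and 15 were higher and 5 lower with JQ1.

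Of 25 other plasma carriers 20 were tested. With FIDAS-5 8 rose and 4 fell, where 12.6% of all genes rose and 7.6% fell. The median log2 fold change was 0.15 against -0.02 over all genes. AMBP, the precursor of a lipocalin carrier, rose by 1.28 (limma adjusted p = 2.44e-04) from 273 ± 26.0 TPM in vehicle to 663 ± 55.1 TPM. SHBG, the sex hormone carrier, rose by 1.20, TCN2, the vitamin B12 carrier, by 1.37 and APOM, which carries sphingosine-1-phosphate, by 1.81. Among those that fell, the log2 fold change was -2.06 for the haemoglobin carrier HP, -0.78 for the haem carrier HPX, and -1.13 and -1.07 for the drug-binding acute phase proteins ORM1 and ORM2. ORM1 and ORM2 are near-identical, so their separate levels are uncertain.

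With JQ1 6 of the 20 rose and 9 fell, where 19.0% of all genes rose and 19.4% fell. The median was -0.26 against -0.01 over all genes. APOA1, the main protein of high density lipoprotein, rose by 2.63 (limma adjusted p = 8.74e-06) from 237 ± 32.0 TPM in vehicle to 1465 ± 37.7 TPM. AMBP rose by 1.69 and TF, the iron carrier, by 0.54. Among those that fell, the log2 fold change was -3.80 for ORM1, -3.06 for ORM2, -2.45 for APOM, -1.76 for the copper carrier CP and -1.33 for AHSG, which binds calcium phosphate. SERPINA7, the thyroxine-binding globulin, which like TTR carries thyroxine, fell by 1.22 (adjusted p = 0.00136). Unlike TTR, SERPINA7 and CP were too low to be tested with the filter at 5 TPM. SERPINA6, the cortisol carrier, had 27.7 ± 2.41 TPM in vehicle against 22.3 ± 1.24 TPM with JQ1 (adjusted p = 0.0704). Like TTR, APOM rose with FIDAS-5 and fell with JQ1, and so did IGFBP1, which carries insulin-like growth factors, with log2 fold changes of 3.68 and -0.55, though it passed the filter only through the FIDAS-5 libraries. IGFBP1 was at 0.681 ± 0.245 TPM in vehicle, 20.5 ± 1.94 TPM with FIDAS-5 and 0.138 ± 0.0489 TPM with JQ1. The fall of IGFBP1 was lost with quantile normalization (adjusted p = 0.0542) and without JQ1 replicate 2.

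**Figure D5:**
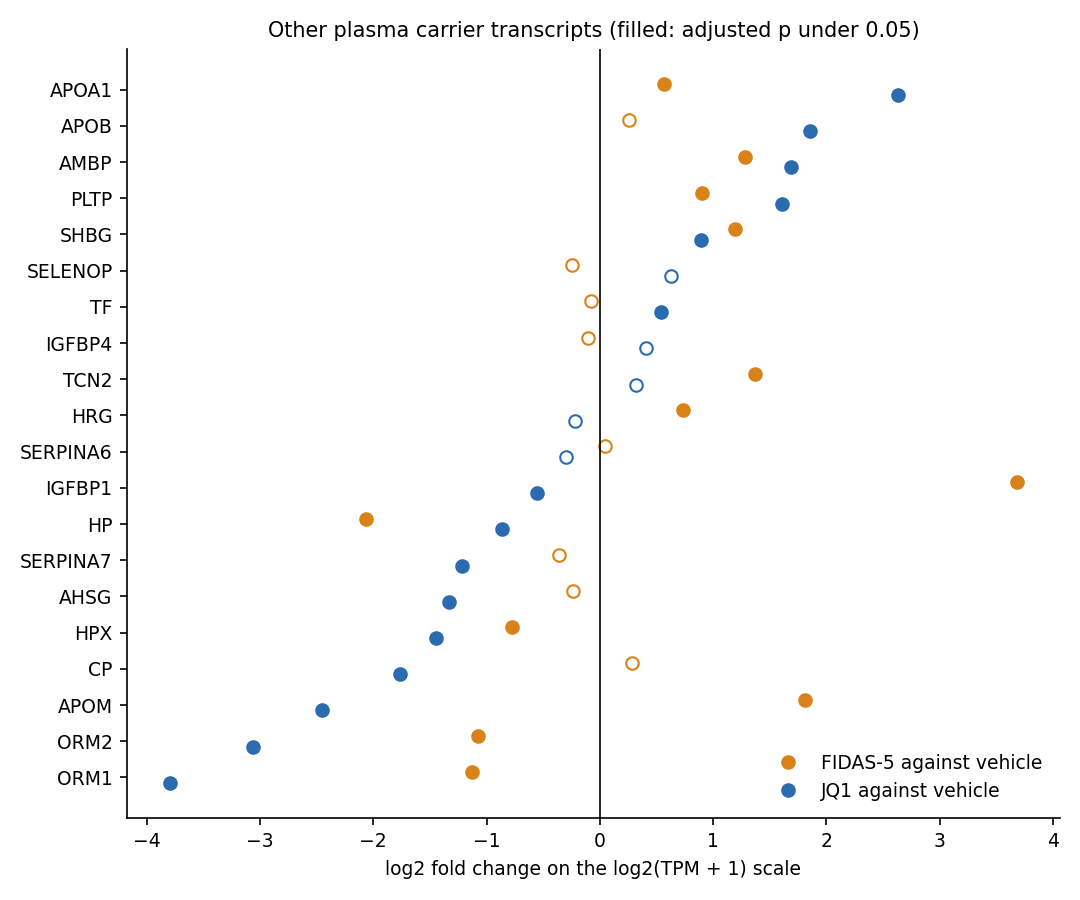
Log2 fold change (horizontal axis, log2(TPM + 1) scale) of the 20 other plasma carriers tested, with FIDAS-5 and JQ1 each against vehicle, ordered by the JQ1 value, and filled at an adjusted p under 0.05. Values with JQ1 run from -3.80 for ORM1 to 2.63 for APOA1, and APOM lies at 1.81 with FIDAS-5 and -2.45 with JQ1.

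The ligands of these carriers have their own enzymes and receptors. Of 25 genes of retinol handling 16 were tested: 4 rose and 2 fell with FIDAS-5, and 7 rose and 3 fell with JQ1 (medians 0.06 and 0.45). Among all genes tested 20.2% were called with FIDAS-5 and 38.5% with JQ1 (medians -0.02 and -0.01). RETSAT, a retinol saturase, rose with both compounds, by 1.56 and 1.31. DHRS3, which reduces retinal to retinol, rose by 0.77 and 1.02. RDH10, which oxidizes retinol, rose with FIDAS-5 by 1.47 (limma adjusted p = 0.00808). With JQ1 the cellular retinol carrier RBP2 and the retinoic acid receptor RARG fell, with log2 fold changes of -2.43 and -1.30. CYP26A1, which breaks down retinoic acid, had 0.0851 ± 0.00347 TPM in vehicle against 1.48 ± 0.192 TPM with JQ1, and passed the filter only through the JQ1 libraries, so its call supports nothing further.

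Of 10 genes of vitamin D handling 6 were tested: 2 rose with FIDAS-5, and 4 rose and 1 fell with JQ1 (medians 0.42 and 0.99). The shares called over all genes were 20.2% with FIDAS-5 and 38.5% with JQ1 (medians -0.02 and -0.01). The sterol 27-hydroxylase CYP27A1 rose from 28.5 ± 1.36 TPM in vehicle to 64.9 ± 7.80 TPM with FIDAS-5 and 67.2 ± 3.55 TPM with JQ1 (log2 fold changes 1.15 and 1.21). AMN, a subunit of the receptor that takes up GC and albumin, rose by 0.90 and 3.39. CYP27B1, which activates vitamin D, fell by 1.19 with JQ1 (limma adjusted p = 2.21e-04). DHCR7, which removes the precursor of vitamin D, rose by 1.13 with JQ1. Of 13 genes of thyroid hormone handling 7 were tested. With FIDAS-5 0 of these were called by limma, and 1 had an unadjusted p under 0.05. With JQ1 3 rose and 1 fell, among them the transporter SLC16A10 (1.36) and the responsive gene KLF9 (-0.57).

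Of 7 genes of albumin uptake and recycling 6 were tested, of which AMN and LRP2 are also on the vitamin D list. With FIDAS-5 3 rose, and with JQ1 3 rose (medians 0.58 and 0.60). FCGRT, the receptor that saves albumin from degradation, rose from 15.4 ± 2.84 TPM in vehicle to 28.2 ± 2.25 TPM with FIDAS-5 (log2 fold change 0.85, limma adjusted p = 0.00411) and 30.4 ± 0.918 TPM with JQ1 (0.95, adjusted p = 0.00113). Without replicate 3 of both compounds 5 rose with FIDAS-5 and 4 with JQ1. Of 20 genes of folding and export 3 rose with FIDAS-5, and 2 rose and 3 fell with JQ1 (medians 0.33 and -0.01), or 6 and 3 with JQ1 without those libraries. For both lists the shares called over all genes were 20.2% with FIDAS-5 and 38.5% with JQ1 (medians -0.02 and -0.01). P4HB, a disulfide isomerase, rose by 0.70 and 0.57, and PDIA4, another, fell by 0.68 with JQ1. FURIN, which cleaves the propeptide of albumin, rose by 1.29 with JQ1, a call lost with no filter (adjusted p = 0.0558).

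AFP belongs to the genes of fetal liver that return in liver cancer. Of 14 others on that list 13 were tested: 1 rose and 3 fell with FIDAS-5, and 3 rose and 5 fell with JQ1 (medians -0.19 and -0.24), or 4 and 4 with JQ1 without replicate 3 of both compounds, with a median of 0.15. Over all genes tested 20.2% were called with FIDAS-5 and 38.5% with JQ1 (medians -0.02 and -0.01). GPC3, a cell surface proteoglycan, rose with JQ1 by 2.53 (limma adjusted p = 1.45e-05) from 323 ± 49.0 TPM in vehicle to 1862 ± 69.1 TPM, and PEG10 rose by 2.78. H19, a long noncoding RNA counted among those that fell, had log2 fold changes of -1.40 with FIDAS-5 and -1.36 with JQ1. H19 passed the filter only through the vehicle libraries, so its calls support nothing further. MDK, a heparin-binding growth factor, was lower with both compounds, with log2 fold changes of -0.64 with FIDAS-5 and -0.45 with JQ1 (limma adjusted p = 0.0147). The call of MDK with JQ1 was lost with quantile normalization (adjusted p = 0.162). SPINK1 rose by 0.95 with FIDAS-5, and at 255 ± 59.5 TPM in vehicle and 278 ± 31.1 TPM with JQ1 it was not called with that compound (adjusted p = 0.559).

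The genes whose pattern over the 9 libraries was most like that of each member were named by Pearson correlation of log2(TPM + 1) among 7189 genes with a mean of at least 5 TPM, as a description. For TTR they were NAT8 (0.998), CEACAM1 (0.998) and AGR2 (0.997). NAT8 was at 21.3 TPM in vehicle, 94.7 TPM with FIDAS-5 and 0.922 TPM with JQ1 on average. For ALB they were SAT1 (0.985), RSRP1 (0.983) and KLHDC2 (0.982), and for GC SKP1 (0.988), RNF19A (0.977) and GSTA4 (0.976). For AFP they included ABHD10 (0.977) and ITCH (0.974), for RBP4 SESN2 (0.991), STK40 (0.990) and SMG5 (0.988), and for AFM NDEL1 (0.986), ATRN (0.980) and YPEL2 (0.970). Among the members, ALB and GC correlated at 0.92 and ALB and TTR at -0.80. Departures within groups were also shared: those of SAT1 and ALB correlated at 0.981 and those of SKP1 and GC at 0.990, where those of NAT8 and TTR correlated at 0.305.

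The summed levels of leukocyte markers and of fibroblast and endothelial markers followed the order of TTR over the groups, each mostly through 1 gene, and their part in its change was not tested. The summed level of 8 leukocyte markers, of which 4 were tested, was 115 to 141 TPM in vehicle, 253 to 312 TPM with FIDAS-5 and 19.3 to 28.2 TPM with JQ1. LYZ, a secreted lysozyme, made up most of it, and the leukocyte marker PTPRC was at or below 0.918 TPM in every library. CD14, a monocyte marker, was at 1.59 to 2.85 TPM in the 9 libraries, and LCP1 rose with FIDAS-5 (1.08) but had a log2 fold change of -0.07 with JQ1 (adjusted p = 0.838). The sum of 9 fibroblast and endothelial markers was 8.57 to 11.2 TPM, 16.9 to 18.5 TPM and 2.93 to 3.45 TPM, mostly from PECAM1, with VWF at 0 in all vehicle and JQ1 libraries. COL1A2, the other gene of that list tested, went the other way, with log2 fold changes of -0.12 with FIDAS-5 (adjusted p = 0.630) and 0.51 with JQ1 (adjusted p = 0.0268). The sum of 5 cholangiocyte markers was 26.3 to 32.3 TPM, 24.4 to 39.6 TPM and 31.9 to 48.5 TPM, mostly from SOX9, and did not follow TTR.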

How the data were processed

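RNA sequencing of total RNA was examined in 9 libraries. The authors deposited 1 TPM value for each gene symbol and library. Salmon and hg38 are named in the submitters' processing notes, and a version and annotation are not given in the sources used here. Each library sums to 1000000 TPM to within 1.22. Values were transformed to log2(TPM + 1), which understates changes of genes at a few TPM, and genes with at least 1 TPM in 3 libraries were kept. A model with a mean per group over all 9 libraries was fitted with limma 3.58.1 in R 4.3.3 (6 residual and 2.86 prior degrees of freedom), two-sided, with Benjamini-Hochberg adjustment over 13573 genes and calls at an adjusted p under 0.05. The code was tested on simulated data. Exact permutation tests used scipy 1.17.1, and figures matplotlib 3.10.9.

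Symbols were matched to RefSeq (GRCh38.p14): 25681 by current symbol and 1134 by an older one, which left 985. Transcript G+C content is the median over GENCODE 29 transcripts. Windows of 150 bases before RefSeq start sites were searched on both strands for 6 motifs: the TATA box TATAAA, the CCAAT box, the FOXA core TGTTTAC, the CEBP site TTGCGCAA, the E box CACGTG and the AHR core GCGTG.

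The members and lists were chosen with earlier results of these data known. The rule named the 6 members, the 3 genes most like each, the 2 nearest protein-coding genes on each side, and members of the lists; a few genes it names are not reported here. Alternatives were a pseudocount of 0.1, no filter, a filter at 5 TPM, median-of-ratios scaling, protein-coding genes only, quantile normalization, a fit to the 6 libraries of a comparison alone, a replicate block, limma's trend option, removal of a lowess trend on G+C content, and leaving out each library. Leaving out replicate 3 of both compounds together was chosen after the data were seen. The main fit and the permutation tests used no pairing. For the replicate block in a fit to their libraries alone, same-numbered FIDAS-5 and JQ1 libraries were taken as paired. The reason was that their departures from the group means correlated across genes at 0.26, 0.10 and 0.42, each over 0.1. The labels give only the number. FIDAS-5 replicate 1 and JQ1 replicate 2, which differ in number, correlated at 0.18, above the 0.10 of the replicate 2 libraries. The pairing is therefore an assumption. Replicates 1 and 3 also share their direction along G+C content between these groups. The block for the 6 FIDAS-5 and JQ1 libraries alone was also added after the data were seen.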

Additional observations from a re-analysis of the deposited data

How the results depend on the processing

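All calls of ALB with JQ1 and of TTR in every comparison held under every alternative run. AFM was not tested with the filter at 5 TPM. Nor were CP, CYP26A1, CYP27B1, DSG3, FFAR4, H19, KLF9, LRP2, RARG, SERPINA7, SHBG, TCN2 and ZBTB20, which were too low for it. With FIDAS-5 the main count of 1 member called became 2 with a pseudocount of 0.1, no filter, median-of-ratios scaling, protein-coding genes only, quantile normalization, and without replicate 3 of both compounds together, 3 with a trend in the moderation or the G+C trend removed, and 1 to 2 when leaving out single libraries. The added members were AFM (adjusted p = 0.00209 to 0.0484 where called) and RBP4 (0.0348 to 0.0455). With JQ1 the count of 3 became 5 with the G+C trend removed, 4 with no filter, median-of-ratios scaling, protein-coding genes only, quantile normalization and a trend in the moderation, 2 with the filter at 5 TPM, which leaves out AFM, and 3 to 4 when leaving out single libraries. Leaving out vehicle replicate 1 or JQ1 replicate 3 gave the count of 2 with FIDAS-5. Over all genes, the count with FIDAS-5 was 2742, 4416 with the G+C trend removed, 1639 without vehicle replicate 3 and 1640 without FIDAS-5 replicate 3 (1639 to 3290 over all single libraries), and between JQ1 and FIDAS-5 the count of 4726 became 2991 with the filter at 5 TPM. Leaving out JQ1 replicate 3 moved the median of all genes with JQ1 by 0.12 on the log2 scale.

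Departures of vehicle libraries and same-numbered treated libraries correlated at -0.08 to 0.16, and these libraries were not taken as paired. The highest of these values lies above the 0.10 of FIDAS-5 and JQ1 replicate 2. With the replicate block over all 9 libraries 2 members were called with FIDAS-5, AFM being added (adjusted p = 0.0484), and 4 with JQ1, GC being added (adjusted p = 0.0436). Between JQ1 and FIDAS-5, whose numbers were assumed to pair, the replicate block in a fit to those 6 libraries, added after the data were seen, gave 4 members called in place of 2, with AFP and GC added. It changed no other call of a member. It leaves 2 residual degrees of freedom. Depth is unknown because TPM keeps no counts.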
